A study of Mus musculus with 6 samples.

Results

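The Ly6 family members examined were Ly6a, Ly6c1, Ly6d and Ly6e, taken as every probe set whose single gene symbol in the platform annotation was one of these names. This rule found 2 of the 18193 genes named on the array, with 3 of its 45101 probe sets, 1 for Ly6d and 2 for Ly6e. Ly6c1 has no probe set of its own in that annotation, because the probe set that reads it carries the symbols of both Ly6c1 and its neighbour Ly6c2. That probe set is therefore described beside the members and is assigned to neither gene. Ly6a was not analysed here. Total RNA of mouse lymph node T cells had been measured on 6 single-colour Affymetrix arrays. The control group, Ezh2 fl/fl, had 3 arrays and bears the fl/fl sign commonly used for loxP-flanked genes, and the other group, Ezh2 deficient, also had 3 arrays. The labels name no Cre driver, strain, sex, age, treatment or batch and do not say how many animals the arrays stand for, so the p-values rest on the spread among these samples alone, and that spread may be technical.

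Ly6 proteins are small, cysteine-rich surface proteins with a three-finger fold, most of them held in the membrane by a glycosylphosphatidylinositol (GPI) anchor. In the mouse the classical members lie together in a gene cluster on chromosome 15, and several serve as markers of lymphocyte and myeloid subsets. Ly6e, also known as TSA-1 or Sca-2, was described on thymocytes and is induced by interferon. Ly6d, the ThB antigen, marks the step at which lymphoid progenitors turn towards the B lineage, and the Ly6C antigen encoded by Ly6c1 and Ly6c2 is found on monocytes, endothelium and memory CD8 T cells. Ezh2, the enzyme of Polycomb repressive complex 2, places the repressive methyl marks on histone H3 lysine 27.

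Ly6c1 and Ly6c2 are near copies, and the 250 bases before an annotated start of each gene are shown because the Ly6 probe set with the smallest p in the comparison is the one they share. The sequences are from RefSeq in build GRCm38.p6, read 5′ to 3′ along each gene. Each gene has 2 such windows in the table, and the pair that aligned best is printed, with the longest run of letters common to both, 20 bases, in capitals.
Ly6c1, chr15:75048664-75048913, minus strand: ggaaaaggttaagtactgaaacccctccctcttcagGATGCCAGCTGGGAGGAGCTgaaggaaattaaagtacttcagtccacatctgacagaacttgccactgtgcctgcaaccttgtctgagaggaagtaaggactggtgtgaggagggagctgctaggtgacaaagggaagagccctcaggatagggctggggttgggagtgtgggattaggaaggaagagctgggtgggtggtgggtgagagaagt
Ly6c2, chr15:75111938-75112187, minus strand: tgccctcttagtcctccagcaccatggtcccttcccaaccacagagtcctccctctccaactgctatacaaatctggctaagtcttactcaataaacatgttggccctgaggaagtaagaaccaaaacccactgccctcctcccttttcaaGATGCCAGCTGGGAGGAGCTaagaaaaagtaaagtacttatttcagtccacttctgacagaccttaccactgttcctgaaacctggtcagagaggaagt
In the overlap of the windows, which are offset against each other, 112 of 145 alignment columns were identical (77.2%). The probe set's own target sequence was not compared. The interferon-stimulated response element, searched by its core GAAANNGAA on both strands, was in 0 of the 2 Ly6c1 windows and 0 of the 2 Ly6c2 windows, and in 7.13% of all 32851 windows of this length. The interferon gamma activated site, searched as TTCNNNGAA on both strands, was likewise in 0 of 2 and 0 of 2 windows, and in 7.02% of all windows. These counts say only that the letters are not in these 250 bases.

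The correlation of log2 values between arrays ran from 0.973 to 0.978 within groups and from 0.972 to 0.977 between them. The normalised intensity of Ezh2 itself was 688 ± 111 with Ezh2 fl/fl and 282 ± 6.55 with Ezh2 deficient (mean ± SD over 3 arrays), and every deficient array was below every control. Its log2 difference was -1.16 (SE 0.13, limma adjusted p = 0.0705), and whether the probe set lies within the deleted part is not given. Ezh2 fl/fl replicate 1 stood apart from the rest on the first principal component, at -58.9 where the others ran from 0.47 to 21.4. The T cell receptor complex gene Cd3d, a defining marker of the labelled cells, was bright on every array, at 16876 ± 440 for fl/fl against 16496 ± 735 for deficient arrays.

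Ly6e, the interferon-induced thymocyte antigen, showed no difference between the groups that passed the test on either of its probe sets. They are told apart here by the ending of their names, _s_at and _at. On the _s_at probe set, Ezh2 fl/fl replicates 1, 2 and 3 had normalised intensities of 13603, 13310 and 9725, and the deficient replicates had 15183, 9957 and 10760 in the same order of numbering. The highest of the 6 arrays was deficient replicate 1 and the lowest was fl/fl replicate 3, so that the groups overlapped throughout. The means were 12213 ± 2159 and 11967 ± 2814 (SD, n = 3 each), a log2 difference of -0.038 (SE 0.17, limma adjusted p = 0.969). The 95% interval of the ratio of deficient to control ran from 0.752-fold to 1.26-fold, so larger changes in either direction lie outside it. In bulk RNA, fewer cells that express a gene and less RNA per cell cannot be told apart, and this holds for every value below. The ending _s_at marks a probe set that can match several transcripts, and RefSeq also lists a pseudogene, Ly6e-ps1, so part of this signal could come from elsewhere.

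The other Ly6e probe set, with the ending _at, gave 1897, 1794 and 1534 in the fl/fl replicates and 2268, 1545 and 1374 in the deficient replicates. Deficient replicate 1 was again the highest array, while the lowest was deficient replicate 3. The means were 1742 ± 187 and 1729 ± 474, a log2 difference of -0.038 (SE 0.17, limma adjusted p = 0.970), with a 95% interval of 0.75-fold to 1.26-fold. As deviations from the mean of the controls, the values of the probe sets lay within 0.16 of each other on the log2 scale on every array, against a range over the 6 arrays of 0.71 for the _at probe set and 0.64 for the _s_at probe set. Both probe sets thus gave the same picture of an array-to-array spread that did not follow the groups. The sign of so small a difference is not fixed: it turned positive on the _s_at probe set under the deposited scaling and on both probe sets when that scaling was centred on the array medians. Without fl/fl replicate 1, the array that stood apart, it was 0.046 on the _s_at and 0.025 on the _at probe set. Without deficient replicate 1, the highest array, it was -0.22 on the _s_at and -0.24 on the _at probe set (limma adjusted p = 0.907 and 0.900).

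**Figure D1:**
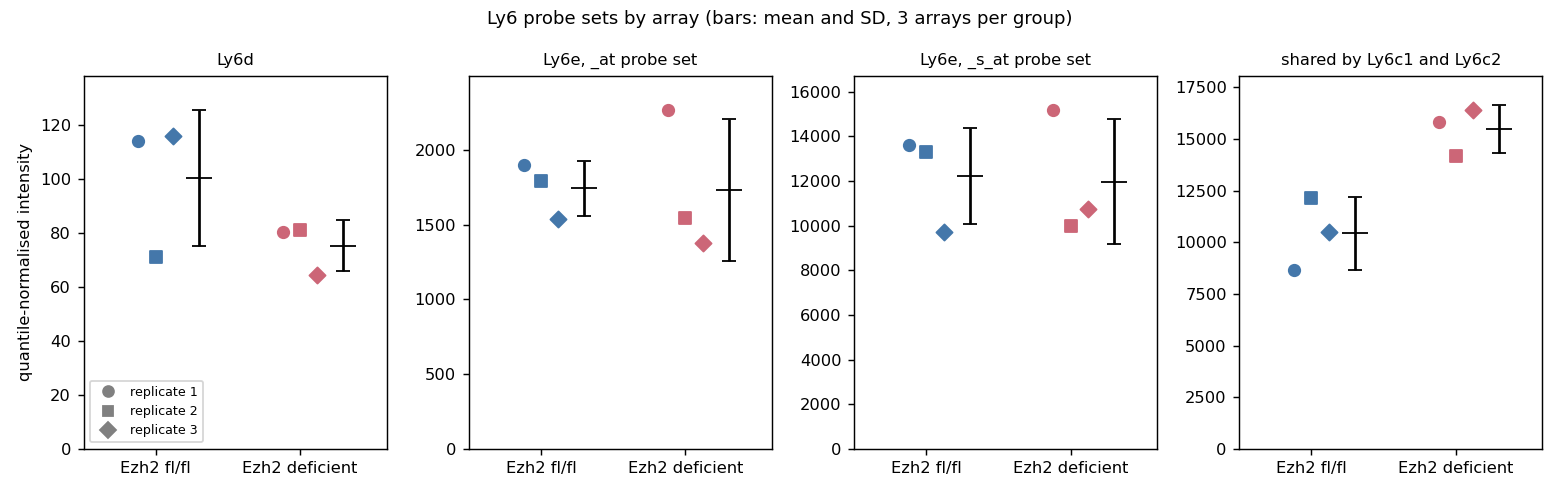
Quantile-normalised intensity (linear axis from 0) of the 3 member probe sets and of the probe set shared by Ly6c1 and Ly6c2, for 3 Ezh2 fl/fl arrays (blue) and 3 Ezh2 deficient arrays (red), with symbols for the replicates and bars for mean and SD. The groups overlap for Ly6d and for both Ly6e probe sets, while all 3 deficient arrays of the shared probe set, at 14180 to 16406, lie above the controls, at 8636 to 12137.

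Ly6d was dim in these T cells. Its single probe set gave 114, 71.4 and 116 in the fl/fl replicates and 80.3, 81.4 and 64.5 in the deficient replicates. The means were 101 ± 25.3 and 75.4 ± 9.44, and fl/fl replicate 2 lay among the deficient arrays, so the groups overlapped. The mean level was below the filter on dim probe sets, which lay at an intensity of 112.7, and Ly6d was therefore not among the 27022 probe sets tested. Fitted without that filter, its log2 difference was -0.26 (SE 0.20, limma adjusted p = 0.861), with a 95% interval from -0.74 to 0.21. Without fl/fl replicate 1 it was -0.19. Without fl/fl replicate 2 it was -0.42 and the groups did not overlap (limma adjusted p = 0.741). That array was the only control among the deficient values, so the separation followed from leaving it out. No detection calls were used here, so these intensities do not show whether the transcript was present.

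Because Ly6d marks the B lineage, B cell markers are given beside it. Of the 14 listed markers 13 were measured, and their summed intensity ran from 3654 to 4136 in the controls and from 3318 to 3545 in the deficient arrays, so the deficient arrays had the lower sums. The B cell receptor component Cd79a was dim, with 89.9 ± 33.0 for fl/fl and 131 ± 27.8 for deficient arrays. The other component, Cd79b, was at 402 ± 74.1 and 369 ± 44.1. Of 9 tested markers 0 were called by limma, with 0 higher and 1 lower at an unadjusted p under 0.05, where 4.29% of 12275 genes were lower. That gene was Cd72, an inhibitory receptor of B cells, at 1791 ± 329 and 1257 ± 36.2 (log2 difference -0.48, limma adjusted p = 0.520). Cd72 was also the brightest marker of the list and so weighed most in the sums above. Of the 9 tested markers 4 were above 0 and 5 below, where 46.9% of 12275 genes were above 0. The median deviation of these 9 markers from the control mean was 0.091, 0.052 and 0.12 in the fl/fl replicates. In the deficient replicates it was -0.029, 0.047 and -0.26, so it too was lower in the deficient arrays, though barely in replicate 2. Single markers went both ways. The summed level of 8 measured plasma cell markers ran from 4293 to 4866 in the controls and from 4305 to 4523 in the deficient arrays. For 9 plasmacytoid dendritic cell markers it ran from 5787 to 8214 and from 5923 to 8640. Limma called 0 genes of either list, with 0 at an unadjusted p under 0.05, against 0.00% and 8.21% of 12275 genes. The part of such cells in the Ly6d values was not tested.

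Of the members, 2 probe sets, both of Ly6e, were tested and 0 were called by limma at an adjusted p under 0.05, and 0 had an unadjusted p under 0.05. Over all 27022 probe sets tested, 0.00370% were called and 7.22% had an unadjusted p under 0.05. The groups overlapped for both, where 13.1% of all tested probe sets did not overlap.

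The probe set shared by Ly6c1 and Ly6c2 had the smallest p of the Ly6 probe sets described here, although it too was not called. It is no member by the rule and was examined after its values were seen. Its normalised intensity was 8636, 12137 and 10508 in the fl/fl replicates and 15818, 14180 and 16406 in the deficient replicates. All 3 deficient arrays stood above all 3 controls. The means were 10427 ± 1752 and 15468 ± 1154, so that the deficient arrays had 148% of the control intensity. This was a log2 difference of 0.58 (SE 0.11), a ratio of 1.49-fold with a 95% interval of 1.26-fold to 1.77-fold. The unadjusted limma p was 0.000491, and over all probe sets the adjusted p was 0.334. An exact two-sided permutation test gave 0.10, the smallest p that 3 arrays against 3 allow. All 3 deficient arrays lay above all 3 controls for 6.55% of all tested probe sets.

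With each array left out in turn, the log2 difference ran from 0.45, without fl/fl replicate 1, to 0.69, without fl/fl replicate 2. The groups stayed apart each time, but groups that lie fully apart mostly stay so when an array is left out. That outcome was therefore largely fixed in advance and says nothing on how firm the separation is. The adjusted p ran from 0.180 to 0.779 over the 15 alternatives run. The annotation cannot say whether Ly6c1, Ly6c2 or both gave this signal. The suffix _a_at marks probes that can match several transcripts of a gene.

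Ly6C antigen is carried by several cell types, and their marker lists are given beside this probe set. Of 15 tested markers of memory and effector CD8 T cells 11 had a positive difference, with a median of 0.27, and 0 were called by limma. At an unadjusted p under 0.05 there were 5 higher and 1 lower, where over 12275 genes 3.92% were higher and 4.29% lower. The median deviation of this list from the control mean was -0.12, 0.23 and -0.040 in the fl/fl replicates and 0.27, 0.24 and 0.22 in the deficient replicates, so that fl/fl replicate 2 lay within the range of the deficient arrays. The summed level of the list ran from 39688 to 44896 in the controls and from 41516 to 42474 in the deficient arrays. Its brightest members, the CD8 chains Cd8b1 and Cd8a, were at 12247 ± 79.1 and 9730 ± 364 in the controls and at 10913 ± 498 and 9321 ± 499 in the deficient arrays. These chains weighed most in the sums above, which therefore say little on the other markers of the list. Cd8b1 was the lower gene at an unadjusted p under 0.05, with a log2 difference of -0.17 (limma adjusted p = 0.581). The 5 higher ones, picked with their values in view, were the cytotoxic granule protease Gzmm (log2 difference 0.68), the cytokine Ifng (0.38), the inhibitory receptor chain Klrc1 (0.74), the chemokine receptor Cxcr3 (0.48) and the interleukin receptor chain Il2rb (0.29), with limma adjusted p from 0.623 to 0.682. The groups overlapped for Klrc1 and Cxcr3 and did not for Gzmm, Ifng and Il2rb, nor, on the lower side, for Cd8b1. Over the whole list 4 genes were higher and 1 lower without overlap, where 6.40% of 12275 genes were higher without overlap.

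Of the monocyte and macrophage markers 7 of 12 measured passed the filter on dim values, of the neutrophil markers 3 of 9 and of the endothelial and stromal markers 8 of 14. The summed level of 12 measured monocyte and macrophage markers ran from 1920 to 2053 in the controls and from 1785 to 2016 in the deficient arrays. Csf1r, the receptor for macrophage colony-stimulating factor and the 1 marker of these lower at an unadjusted p under 0.05, was at 371 ± 70.3 for fl/fl and 264 ± 7.34 for deficient arrays without overlap (log2 difference -0.42, limma adjusted p = 0.632). Over all 27022 probe sets tested, the groups did not overlap, in either direction, for 13.1%. For 9 neutrophil markers the sum ran from 834 to 1034 and from 850 to 1003, with the granulocyte protein gene S100a9 near the floor at 9.13 ± 3.85 and 16.6 ± 8.40. For 14 endothelial and stromal markers it ran from 2550 to 3206 and from 2576 to 2784. For 13 dendritic cell markers it ran from 2458 to 3474 and from 3324 to 4435, with 8 of 9 tested markers above 0. The median deviation of these 9 from the control mean was -0.10, 0.14 and 0.023 in the fl/fl replicates. In the deficient replicates it was 0.38, 0.34 and 0.20. For 10 T cell markers the sum ran from 83636 to 86150 and from 85515 to 86767. Of these 5 lists, the dendritic cell list had 4 of 9 tested genes higher at an unadjusted p under 0.05 and the monocyte list 1 of 7 lower, against 3.92% higher and 4.29% lower over 12275 genes, and limma called 0 genes in any of them. The part of such cells in the Ly6 values was not tested.

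Interferon response genes are shown because Ly6e and the Ly6C antigen are interferon-induced. Of 50 tested genes 47 had a positive difference, with a median of 0.38 where the median over 12275 genes was -0.010. Limma called 0 of the 50, and 29 were higher at an unadjusted p under 0.05, where 3.92% of 12275 genes were. Without Ezh2 deficient replicate 2 it called 2. The list was already known to stand higher in the deficient arrays, so it is not independent evidence. Per array, the median deviation of the list from the control mean was -0.11, -0.013 and 0.10 in the fl/fl replicates and 0.53, 0.092 and 0.51 in the deficient replicates. The antiviral synthetase Oas1a was at 780, 1004 and 976 in the fl/fl replicates and at 2659, 1600 and 2443 in the deficient replicates.

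Set beside the median of this list, Ly6e and the shared Ly6c1 and Ly6c2 probe set each differed from it on some arrays. Single genes of the list differ from its median too. In deficient replicate 2, Oas1a, Ddx60 and Ifi44l, the 3 of smallest p in the list, were at 1600, 688 and 543. Each of these values lay above every control, which the choice by smallest p largely fixed in advance. Of the 50 tested genes of the list 16 were higher without overlap, where 6.40% of 12275 genes were. In deficient replicate 3, where the list stood at 0.51, the Ly6e probe sets were at -0.17 (_s_at) and -0.33 (_at). In deficient replicate 1, where the list stood at 0.53, they were at 0.33 and 0.38. The shared probe set was at 0.46 in deficient replicate 2, where the list stood at 0.092, and at 0.61 and 0.67 in deficient replicates 1 and 3. These are deviations in log2 from the mean of the controls, and no relation between them was tested over 6 arrays that fall into 2 groups.

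**Figure D2:**
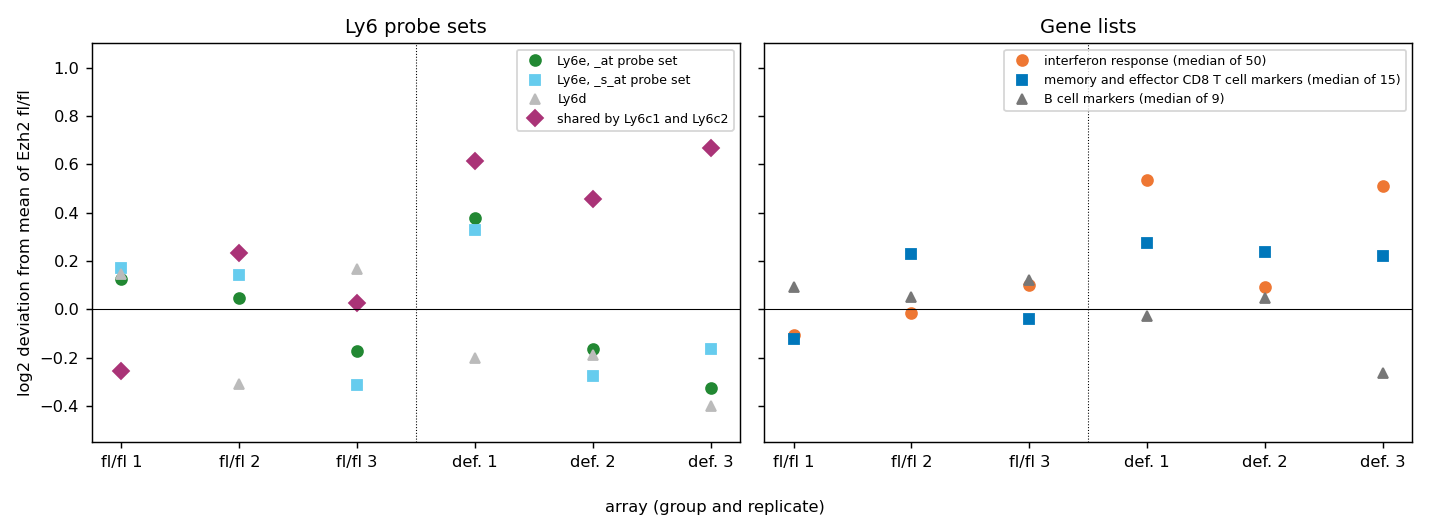
Log2 deviation from the mean of the Ezh2 fl/fl arrays on each of the 6 arrays, for the Ly6 probe sets (left) and as the median of tested genes of 3 lists (right); the dotted line parts the groups. Both Ly6e probe sets are highest in deficient replicate 1 and at or below -0.16 in deficient replicates 2 and 3, while the shared Ly6c1 and Ly6c2 probe set is at 0.46 or above in all deficient arrays.

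The wider family was mostly dim in T cells. Of 45 listed genes of the Ly6/uPAR family, which share the three-finger fold or a close relative of it, 30 were measured by a probe set of their own and 14 passed the filter on dim values. Limma called 0 of the 14 where it called 0.00% of 12275 genes in this brightest-probe-set view, and 0 had an unadjusted p under 0.05, against 8.21% of those genes. There were 4 above 0 and 10 below 0, with a median log2 difference of -0.15, where 46.9% of all genes were above 0. The whole range ran from -0.32 to 0.43. The median deviation of these 14 genes was 0.14 in fl/fl replicate 1 and -0.072 and -0.11 in fl/fl replicates 2 and 3, a spread within the controls that was wider than the median difference between the groups. The median difference was -0.10 without fl/fl replicate 1 and -0.081 without deficient replicate 3.

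Among the relatives with the smallest p was Ly6m, a gene of the same cluster. It gave 117, 119 and 83.6 in the fl/fl replicates and 151, 147 and 132 in the deficient replicates, a log2 difference of 0.32 (SE 0.18, limma adjusted p = 0.722). The groups did not overlap, the only such case among the 14, while the deficient arrays stood above the controls without overlap for 6.40% of all 12275 genes. Bambi, a pseudoreceptor for ligands of the TGF-beta family, was at 160 ± 55.8 and 231 ± 71.6 with overlapping groups (log2 difference 0.43, limma adjusted p = 0.732). Ly6k, known for its role in sperm, was at 381 ± 47.5 and 325 ± 31.4 (log2 difference -0.20, limma adjusted p = 0.768).

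The brightest relatives by their own probe sets were Lynx1, Plaur and Ly6k. Lynx1, a modulator of nicotinic acetylcholine receptors, was at 454 ± 48.1 and 408 ± 40.4 (log2 difference -0.14, limma adjusted p = 0.837). Plaur, the urokinase receptor, was at 400 ± 40.1 and 356 ± 45.7 (log2 difference -0.15, limma adjusted p = 0.828). Groups overlapped for both. Of 16 relatives below the filter, Ly6f, another gene of the cluster, was picked after its values were seen. It gave 72.5, 37.5 and 72.0 in the fl/fl replicates and 147, 91.4 and 132 in the deficient replicates, values near the floor on which no fold change is given. The groups did not overlap, and fitted without the filter its unadjusted limma p was 0.0186 and its adjusted p 0.707.

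**Figure D3:**
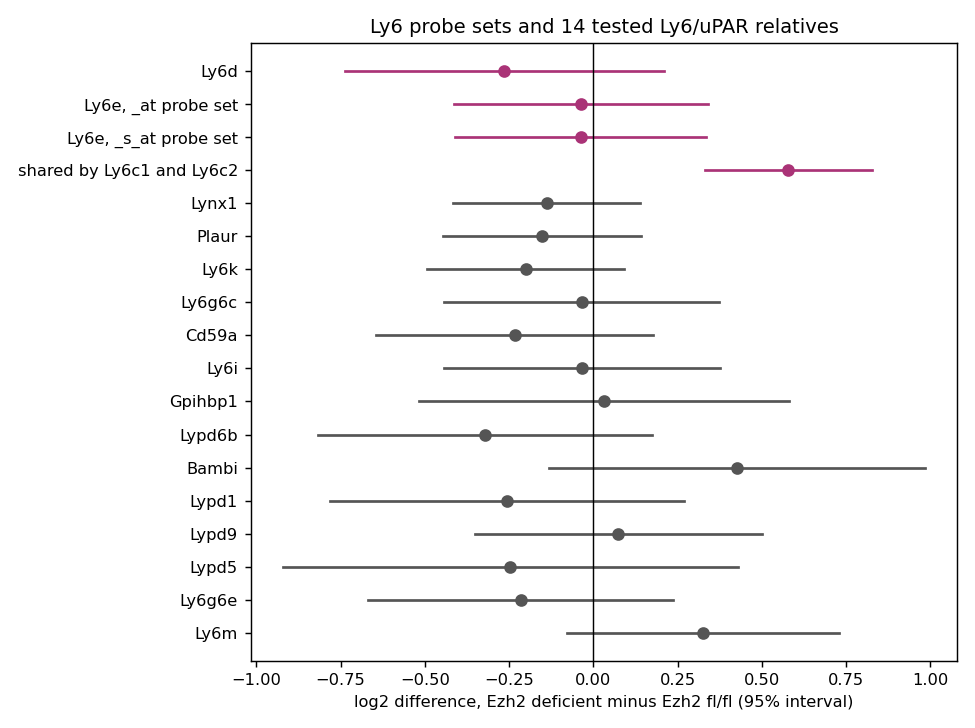
Log2 difference, Ezh2 deficient minus Ezh2 fl/fl, with 95% intervals from limma over 3 arrays per group, for the Ly6 probe sets (purple) and 14 tested Ly6/uPAR relatives (grey); Ly6d is from the fit without the filter. The interval of the probe set shared by Ly6c1 and Ly6c2, 0.33 to 0.83, is the one in this plot that does not include 0.

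Genes beside the members in the cluster gave no called difference. The 35 genes from 10 before the first to 10 after the last member in RefSeq order included 15 with a probe set of their own, of which 7 were tested. Lynx1, Ly6k, Ly6i and Ly6m were also among the tested relatives above, so the lists are not separate. Limma called 0 of the 7 and 0 had an unadjusted p under 0.05, against 0.00% and 8.21% of 12275 genes, so counts over 7 genes say little. There were 3 above 0 and 4 below 0, where 46.9% of all genes were above 0, with a median log2 difference of -0.035. This median was -0.14 without deficient replicate 1, -0.10 without fl/fl replicate 2, -0.093 without fl/fl replicate 1, -0.022 without deficient replicate 3 and 0.0032 without fl/fl replicate 3. Cyp11b1, a steroid hydroxylase of the adrenal gland, had the smallest p, at 163 ± 20.9 and 223 ± 57.0 (log2 difference 0.35, limma adjusted p = 0.722).

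The machinery that builds the anchor of Ly6 proteins also gave no call. Of 30 listed genes for GPI anchor assembly and attachment 29 were measured and 27 tested. Limma called 0 of these, with 0 at an unadjusted p under 0.05, against 0.00% and 8.21% of 12275 genes. There were 8 above 0 and 19 below 0, with a median of -0.055, where 46.9% of all genes were above 0. With the deposited scaling centred on array medians it was 15 of 27 above 0, with a median of 0.023. Pigk, the protease subunit of the GPI transamidase, was at 714 ± 93.0 for fl/fl and 595 ± 41.0 for deficient arrays (log2 difference -0.24, limma adjusted p = 0.710). Piga, part of the enzyme that starts the anchor, was at 1188 ± 171 and 1397 ± 137 (log2 difference 0.23, limma adjusted p = 0.714).

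For each member the genes most alike in pattern were found by the root mean square difference, over the 6 arrays, between log2 deviations from each gene's own mean. For Ly6e on the _s_at probe set, whose own root mean square deviation was 0.24, the closest of 12274 genes were Serpind1 (0.059), Prcp (0.077), Galc (0.080), Unc93b1 (0.082) and Alg14 (0.086), where the median over all genes was 0.28. Serpind1, the closest, was at 213, 189 and 150 in the fl/fl replicates and 242, 150 and 155 in the deficient replicates. For Ly6d the closest of 12275 were Tmc1 (0.049), Pex11g (0.056), Got1l1 (0.056), Vpreb3 (0.058) and Wbp1 (0.061), with a median over all genes of 0.25. Among these Vpreb3 is known from B cell precursors, and it was at 231, 135 and 225 in the fl/fl replicates and 149, 156 and 133 in the deficient replicates. These likenesses are a description over 6 arrays and were not tested.

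**Figure D4:**
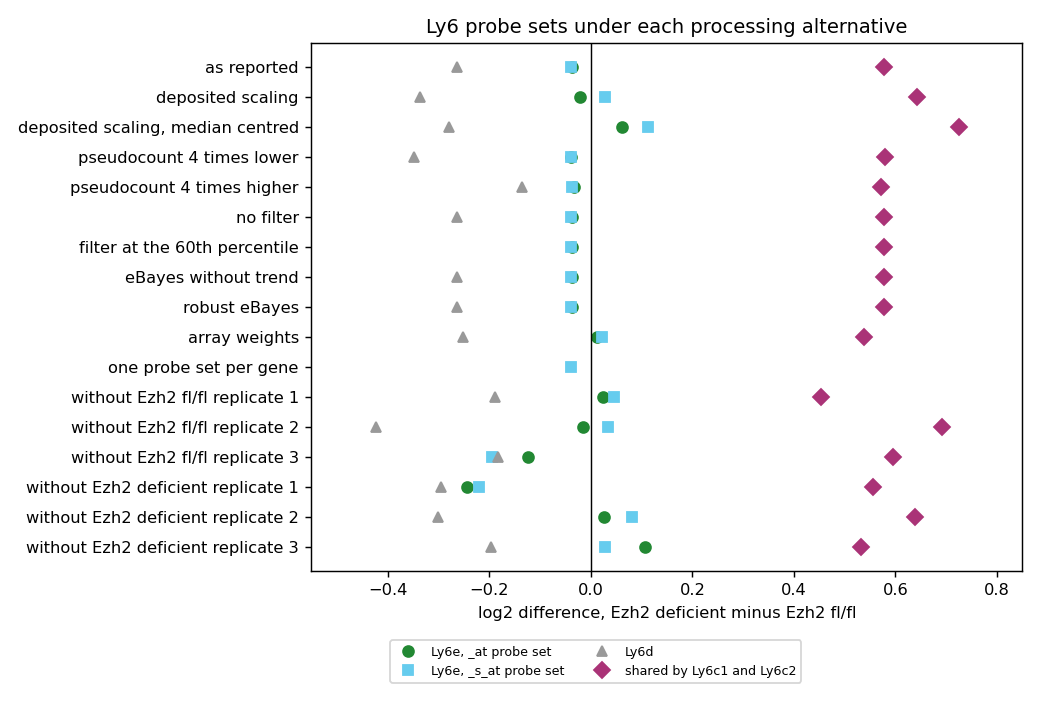
Log2 difference, Ezh2 deficient minus Ezh2 fl/fl, of each Ly6 probe set as reported and under each processing alternative that gave a value. The Ly6e probe sets lie on both sides of 0, between -0.24 and 0.11, Ly6d lies between -0.42 and -0.14, and the probe set shared by Ly6c1 and Ly6c2 lies between 0.45 and 0.73.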

How the data were processed

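The authors' deposited table holds 1 intensity per probe set and array on a linear scale, for 45101 probe sets; how it was made is not given in the sources used here. Its trimmed mean is 500.002 on every array, from the values, while array medians differ by up to 15.2%. The deposited intensities were quantile normalised, put on a log2 scale after a pseudocount of 43.3 (the 20th percentile of positive values) was added, and filtered at the 40th percentile of mean log2 value, without 64 control probe sets. On this log2(value + pseudocount) scale the change of a dim probe set is understated. Ezh2 deficient minus Ezh2 fl/fl was fitted with limma 3.58.1 in R 4.3.3 (lmFit, eBayes with trend, 4 residual degrees of freedom), with Benjamini-Hochberg adjustment over 27022 probe sets and a call at an adjusted p under 0.05, two-sided. The script was tested on simulated data. The number of arrays limits the precision.

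Names came from the platform annotation: 34945 probe sets have 1 symbol, 932 several and 9160 none listed. Of the named ones, 34741 matched a RefSeq table (GRCm38.p6) by gene identifier, and 0 symbols changed. The members and the gene lists (Ly6/uPAR relatives, GPI anchor assembly, interferon response, cluster neighbours and 9 marker lists) were chosen with earlier results of these data known. Each listed gene enters with its brightest probe set. Genes named were all member probe sets, Ezh2, called genes or otherwise the 3 of smallest p in each list, the 3 brightest relatives, the 2 brightest genes of marker lists and the 5 genes most like each member. Others were chosen after their values were seen, which includes Cd79a, S100a9, Ly6f and the CD8 T cell markers with a small unadjusted p. Not every gene under this rule is printed. Alternatives were the deposited scaling, its median centring, 2 other pseudocounts (4 times lower and higher), the filter left out or set at the 60th percentile, array weights, robust eBayes (statmod), eBayes with no trend, 1 probe set per gene, and each array left out.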

Additional observations from a re-analysis of the deposited data

How the results depend on the processing

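None of the Ly6 probe sets was called under any alternative run. For the probe set shared by Ly6c1 and Ly6c2, 15 of 15 alternatives gave a positive difference with the groups apart, and for Ly6d 14 of 14 gave a negative one. The alternative filters and eBayes settings cannot change a difference, and groups that lie fully apart mostly stay so when an array is left out. Part of each tally was therefore fixed in advance. The Ly6e difference changed sign: on the _s_at probe set it was 0.028 under the deposited scaling, 0.11 with median centring and 0.023 with array weights, and on the _at probe set it was 0.062 with median centring and 0.012 with array weights. With each array left out it ran from -0.22 to 0.082 on the _s_at probe set and from -0.24 to 0.11 on the _at probe set. The median over all probe sets tested moved from -0.0029 to 0.060 with median centring. The cause of these changes was not tested.

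The number of probe sets called, 1 as reported, was 3 under the deposited scaling, with robust eBayes or with array weights, 2 with median centring and 0 with 1 probe set per gene, where fewer probe sets are tested, and 1 to 6 with each array left out. Without Ezh2 deficient replicate 2 it was 6, and 3 when Ezh2 fl/fl replicate 1 was left out. Ezh2 was called under the deposited scaling (-1.19), with robust eBayes (-1.16) and with array weights (-1.20), and its difference ran from -1.28, called without Ezh2 fl/fl replicate 1, to -1.05 with each array left out. The interferon genes called numbered 0 to 2 with each array left out, with 2 without Ezh2 deficient replicate 2. The calls among Ly6 members, relatives, cluster neighbours and GPI anchor genes stayed at 0 throughout. With 1 probe set per gene no value exists for the Ly6e _at probe set, Ly6d or the shared probe set, and with the filter at the 60th percentile none for Ly6d. No paired analysis was possible because the labels number the arrays in a single run and pair none of them.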

Other observations

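Outside the rule for named genes, the genes most alike in pattern to the probe set shared by Ly6c1 and Ly6c2 were looked up after its values were seen. Its own root mean square deviation over the 6 arrays was 0.33 in log2. The closest of 12275 genes were BC035044 (root mean square difference 0.039), Homer1 (0.063), Plac8 (0.089), Adam9 (0.092) and Gadd45g (0.097), where the median over all genes was 0.36. Plac8, a small cysteine-rich protein of lymphoid and myeloid cells, was at 4055, 6370 and 4685 in the Ezh2 fl/fl replicates and 7637, 6536 and 8636 in the deficient replicates, so that every deficient array lay above every control. Homer1, a scaffold protein, was dim at 119, 155 and 143 against 227, 201 and 255. Gadd45g, a stress-induced gene that acts on MAP kinase signalling, was at 172, 252 and 219 against 385, 305 and 310. These genes were selected for their likeness over the same 6 arrays, so their differences between the groups are a description and were not tested.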
